A study of Mus with 15 samples.

Results

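The mitochondrial ribosomal protein genes were taken as the protein-coding genes of the deposited matrix whose symbol is Mrpl or Mrps followed by a number and at most 1 letter, which gave 78 of 55471 genes. RNA sequencing covered 15 samples of adipose tissue from wild-type C57BL/6 mice aged 7 weeks, in 3 groups of 5, namely controls, grafts taken at day 3 and grafts taken at day 7. The labels give neither the depot nor the host of the grafts, and they do not say that samples came from separate animals, so the p-values measure only the spread between these samples, which may be technical. All groups share strain, genotype, age and tissue, and no transgene or other agent is named. Each sample held between 17.1 M and 32.0 M estimated counts. All 78 genes passed the filter on low counts, among 16051 genes tested, and no gene of the family was left out.

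Mitochondria keep a small genome whose mRNAs encode core subunits of the respiratory chain, and these mRNAs are translated inside the organelle by a ribosome of its own. The RNA of that ribosome comes from the mitochondrial genome, whereas all of its proteins are encoded in the nucleus, made in the cytosol and imported. Part of the proteins descend from bacterial ribosomal proteins and the others were acquired by mitochondria. Adipocytes use mitochondrial respiration during fat cell formation, lipid handling and heat production.

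By current nomenclature the family held 51 proteins of the large subunit, of which 30 have a bacterial counterpart and 21 are specific to mitochondria. It held 26 proteins of the small subunit, of which 16 have a bacterial counterpart and 10 are classed as specific to mitochondria. The nomenclature also classes Mrps18a and Mrps18b as specific to mitochondria, although both are relatives of the bacterial S18 protein. Symbols and position differ in places, since Mrps18a and Mrps30 were named for the small subunit but sit in the large one. Mrps36 is no ribosome subunit in mammals, where its product ties an enzyme to the oxoglutarate dehydrogenase complex. It was kept as a member because the symbol rule takes it, and its values are given apart from the subunits.

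Levels between genes were compared in deposited TPM, which are scaled for transcript length and to the same total in each sample. Over all samples the mean was highest for Mrpl33 (286.8 TPM), Mrps21 (242.6 TPM) and Mrpl30 (182.2 TPM), which encode homologues of small bacterial proteins. It was lowest for Mrpl1 (10.8 TPM), Mrps30 (11.4 TPM) and Mrpl19 (15.7 TPM). Estimated counts of the members named below ran from 125 for Mrps12 to 2848 for Mrpl30 in a single sample, so no named member was near the limit of detection.

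For changes between groups, levels are CPM, read counts relative to a library size scaled by trimmed means, and changes are log2 fold changes ± SE with n = 5 samples per group. Called means an adjusted p below 0.05 in limma's moderated test, with adjustment over all 16051 genes. The comparison of day 3 grafts with controls asks how the tissue's RNA had changed early after transfer. Here 44 of 78 members were called lower, against 30.3% of all tested genes, and 3 were called higher, against 30.1% of all tested genes. The other 31 were not called. The median log2 fold change was -0.41 over the members and -0.02 over all tested genes, and single members ranged from -1.22 to 0.89. Only 3 members, Mrpl38, Mrpl12 and Mrps35, were called and at least 2-fold lower, a class that held 17.1% of all tested genes. The samples of the groups did not overlap in the lower direction for 24 members, against 19.9% of all tested genes.

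The comparison of day 7 grafts with controls used the same 5 control samples, so the 2 sets of changes are not independent of each other. At day 7, 52 members were called lower, against 28.4% of all tested genes, and 2 were called higher, against 32.2% of all tested genes. The other 24 were not called. The median was -0.49 over the members and 0.03 over all tested genes, with a range from -1.34 to 0.60. The members called and at least 2-fold lower were Mrpl38, Mrpl12, Mrps6, Mrps35, Mrps31, Mrps7 and Mrps34, 7 in all, and this class held 15.9% of all tested genes. Groups did not overlap in the lower direction for 33 members, against 19.8% of all tested genes. In bulk tissue, fewer cells of a type and less RNA per cell cannot be told apart.

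**Figure D1:**
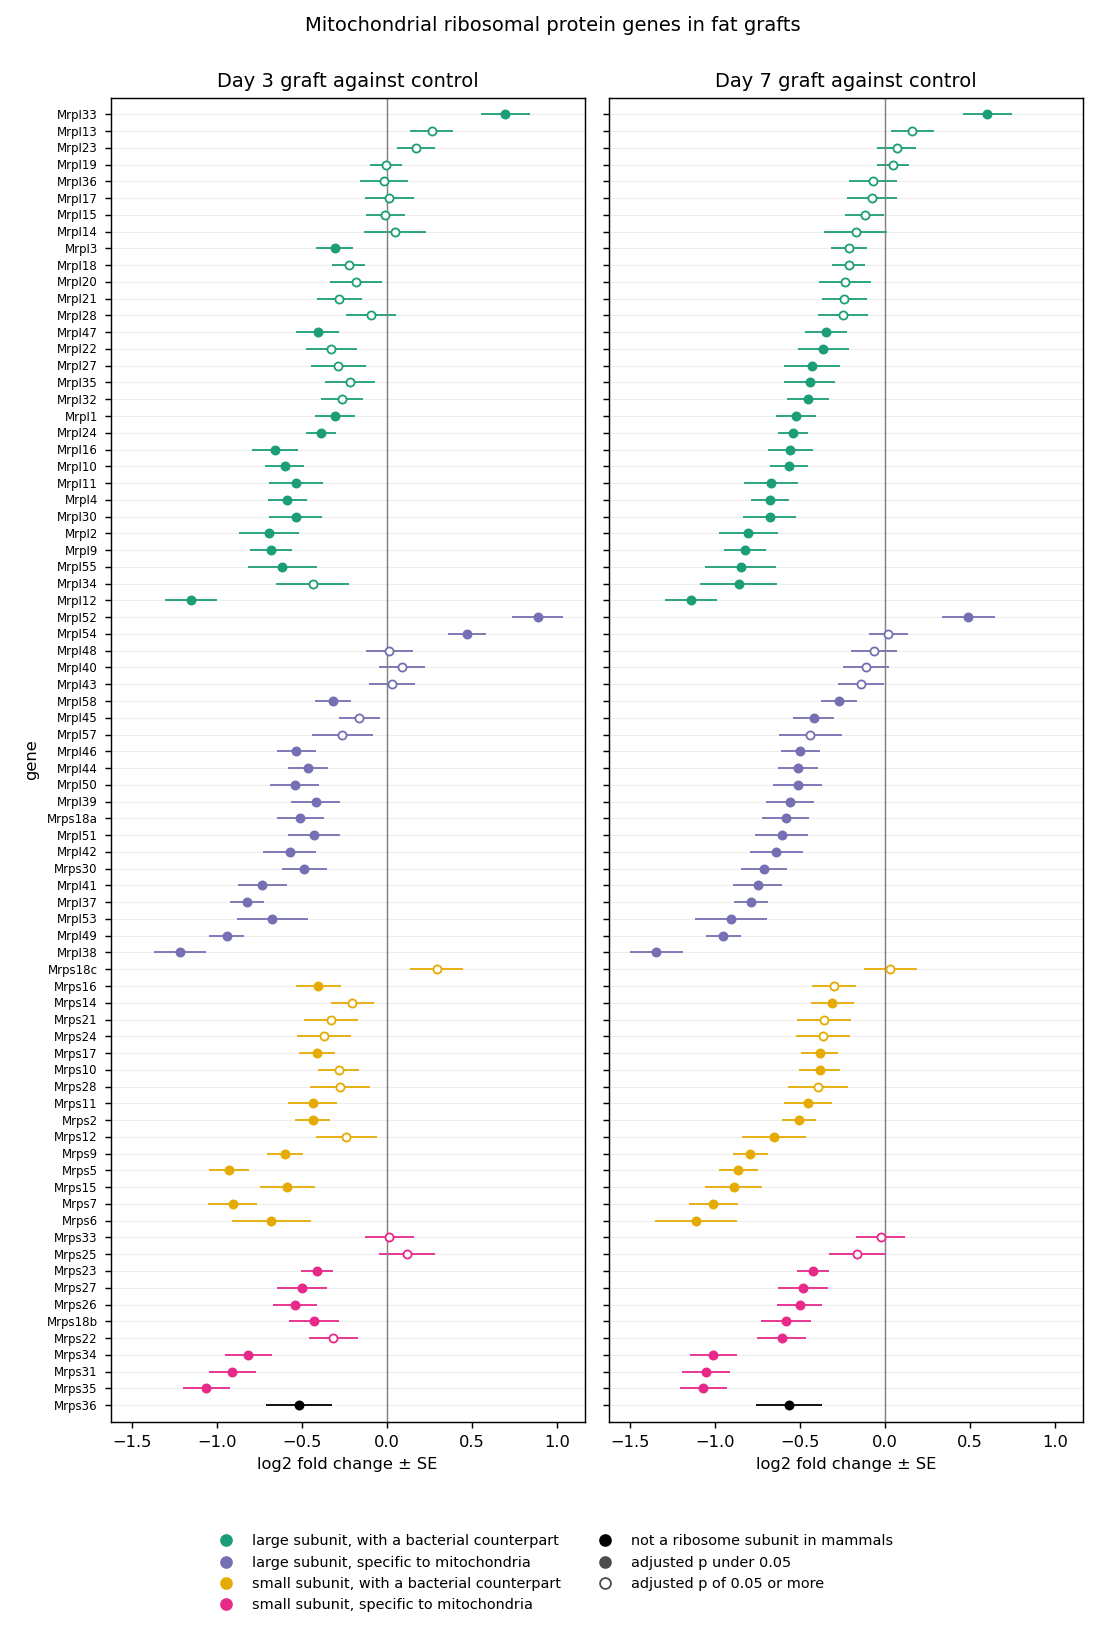
log2 fold changes ± SE (x axis) of the 78 genes (y axis) at day 3 (left) and day 7 (right) against control, n = 5 samples per group, coloured by subunit and origin and sorted by the day 7 value within each class. Filled points passed an adjusted p under 0.05, and most of them lie left of 0 in every class, whereas Mrpl33, Mrpl52 and, at day 3, Mrpl54 lie to the right.

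These counts depended on the scale. The genes of the mitochondrial genome made up 23.5 ± 4.03% of the deposited TPM in controls, 6.52 ± 1.31% at day 3 and 5.97 ± 1.52% at day 7 (mean ± SD). All other genes therefore hold a larger part of that total in the grafts. On the log2(TPM + 1) scale, 20 members were called lower and 17 higher at day 3, against 18.5% and 39.3% of all tested genes, and 21 lower and 15 higher at day 7, against 16.1% and 46.1%. The members' medians on that scale were -0.078 and -0.092, while the medians of all tested genes stood at 0.22 and 0.33. Relative to all genes, the members' medians were lower by 0.29 at day 3 and by 0.43 at day 7 on TPM, and by 0.39 and 0.52 on scaled CPM. With the TPM rescaled to the same total over nuclear genes, an alternative chosen after the data were seen, 47 members were called lower and 6 higher at day 3, against 26.7% and 28.6% of all tested genes, and 45 lower and 3 higher at day 7, against 22.7% and 34.3%.

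**Figure D2:**
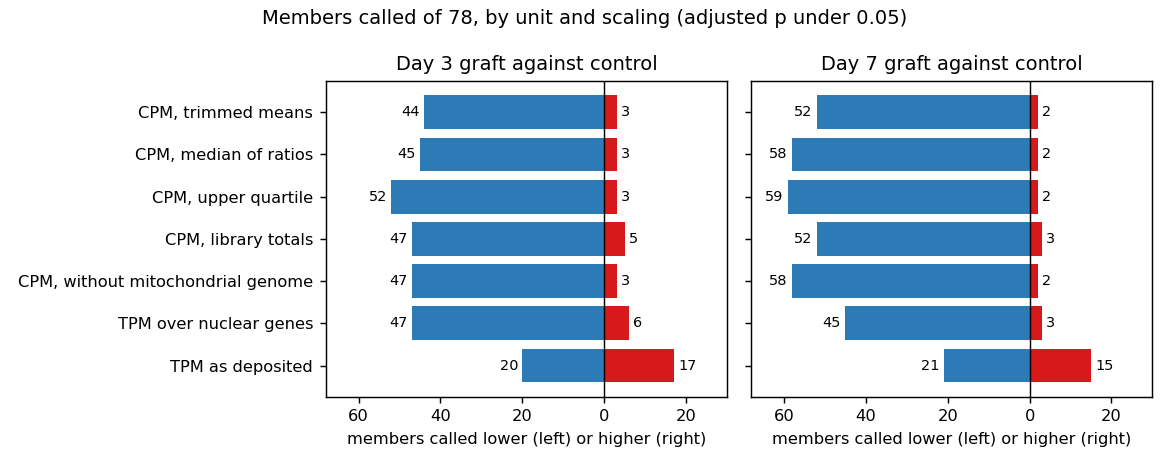
Number of members of 78 called lower (bars to the left) or higher (bars to the right) at an adjusted p under 0.05 under 7 choices of unit and scaling (y axis), for day 3 (left) and day 7 (right) against control. Deposited TPM is the choice with the most even split, 20 lower and 17 higher at day 3.

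The summed TPM of the family was 4104 to 4262 in the 5 controls, 4005 to 4555 at day 3 and 4064 to 4544 at day 7. Over nuclear genes alone the sum was 5079 to 5798 in controls, 4227 to 4821 at day 3 and 4320 to 4889 at day 7, with no overlap between controls and grafts. As a share of all estimated counts, the family took 0.262 ± 0.0100% in controls, 0.210 ± 0.0146% at day 3 and 0.201 ± 0.00916% at day 7. On scaled CPM the sum was 2194 to 3672 in controls, 2005 to 2268 at day 3 and 1770 to 2147 at day 7. Control 4 held the highest value of the 5 controls for 76 of 78 members and control 3 the lowest for 53. Control 4 also had the lowest scaling factor, 0.746, and the highest summed adipocyte markers, 53798 CPM. Without it the members' medians were -0.30 at day 3 and -0.40 at day 7, and 7 rather than 3 members were called higher at day 3.

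The class of large subunit proteins with a bacterial counterpart showed 13 of 30 members lower and 1 higher at day 3, and 17 lower and 1 higher at day 7, with medians of -0.29 and -0.39. For this and the later classes and lists, the shares of all tested genes are 30.3% lower and 30.1% higher at day 3. At day 7 they are 28.4% lower and 32.2% higher. Mrpl12 (ENSMUSG00000039640, chromosome 11, 120484613 to 120489065, plus strand, build mm10) encodes the stalk protein that recruits translation factors to the ribosome. It stood at 86.2, 76.2, 59.7, 106 and 58.4 CPM in the controls, at 30.3, 41.1, 34.7, 30.1 and 34.6 CPM at day 3 and at 31.2, 35.7, 34.3, 30.6 and 39.3 CPM at day 7. Every graft lay below every control. The change was -1.15 ± 0.15 at day 3 (adjusted p = 2.01e-05, limma) and -1.14 ± 0.15 at day 7 (adjusted p = 1.98e-05, limma). The levels at day 3 and day 7 differed by 0.01 ± 0.16, which did not pass the test (adjusted p = 0.985, limma).

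In the same class Mrpl33 moved the other way. Its gene (ENSMUSG00000106918, chromosome 5, 31596935 to 31664384, plus strand) overlaps Rbks on the opposite strand, and the sources used here do not give whether counting used strand. Mrpl33 had 41.1, 38.5, 36.2, 64.6 and 46.9 CPM in the controls and 65.7, 72.2, 78.3, 73.9 and 71.6 CPM at day 3. At day 7 it had 73.8, 63.5, 64.4, 57.5 and 81.9 CPM. All day 3 grafts exceeded all controls, while at day 7 grafts 2 to 4 lay below control 4, and the change was 0.70 ± 0.14 (adjusted p = 7.77e-04, limma) and 0.60 ± 0.14 (adjusted p = 0.00221). In TPM it went from 154, 155, 162, 200.03 and 194 in the controls to 338, 319, 362, 343 and 345 at day 3 and 376, 347, 326, 318 and 362 at day 7, without overlap. Of the family's summed TPM it held 4.14 ± 0.520% in controls, 7.97 ± 0.412% at day 3 and 8.11 ± 0.612% at day 7.

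Some members of this class had changes near 0. Mrpl19, on scaled CPM, had 20.3, 20.03, 20.8, 18.9 and 21.3 in the controls, 23.7, 18.5, 22.3, 18.4 and 18.8 at day 3 and 20.99, 19.9, 21.1, 19.9 and 22.7 at day 7. Its changes were -0.01 ± 0.09 and 0.05 ± 0.09, so its groups overlapped throughout. Mrpl15 (change -0.01 ± 0.12 at day 3) was likewise not called, but on deposited TPM it turned to 0.30 and was called higher. Mrpl17 (-0.07 ± 0.15 at day 7) was not called either, but on deposited TPM it turned to 0.38 and was called higher. For Mrpl18, a protein of the central protuberance, the changes were -0.22 ± 0.10 (adjusted p = 0.0588, limma) and -0.21 ± 0.10 (adjusted p = 0.0736), and it was called in 6 of 29 alternatives at each time. Mrpl1, the protein of the stalk beside the exit site, was at 23.9 ± 4.91 CPM in controls, 19.2 ± 0.860 at day 3 and 16.5 ± 0.936 at day 7. It was called lower at both times (-0.31 and -0.52), but at day 3 the call was lost in 11 of 29 alternatives (adjusted p = 0.0343 and up to 0.753, limma). Mrpl30, among the most abundant members, changed by -0.54 ± 0.16 and -0.68 ± 0.16, called lower at both times.

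Among the large subunit proteins specific to mitochondria, 14 of 21 were lower and 2 higher at day 3, and 15 lower and 1 higher at day 7, with medians of -0.46 and -0.51. Mrpl38 (ENSMUSG00000020775, chromosome 11, 116131817 to 116138868, minus strand) had the lowest fitted change of the family at both times. Its levels were 39.7, 38.8, 30.3, 58.9 and 36.2 CPM in the controls, 16.4, 21.02, 15.9, 15.7 and 17.05 CPM at day 3 and 14.7, 14.4, 16.3, 16.01 and 17.3 CPM at day 7. The lowest control, control 3, was above the highest graft, day 3 graft 2. The changes were -1.22 ± 0.15 (adjusted p = 1.19e-05, limma) and -1.34 ± 0.15 (adjusted p = 4.85e-06). Mrpl49 fell by 0.94 and 0.95 on the log2 scale, and Mrpl37 fell by 0.82 and 0.79, both without overlap between grafts and controls. Mrps30, which shares a protein family entry with Mrpl37 in the matrix's annotation, changed by -0.48 ± 0.13 and -0.71 ± 0.14.

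No overlapping gene is listed for either of the members of this class that were called higher at day 3. Mrpl52 (ENSMUSG00000010406, chromosome 14, 54426909 to 54429756, plus strand) had 8.64, 9.46, 9.54, 9.26 and 8.95 CPM in the controls and 11.9, 17.7, 19.5, 19.9 and 17.1 CPM at day 3. At day 7 it had 12.3, 12.3, 13.3, 11.1 and 15.5 CPM. No graft reached down to a control, and the day 3 change of 0.89 ± 0.15 (adjusted p = 1.66e-04, limma) was the highest in the family. The day 7 change was 0.49 ± 0.16 (adjusted p = 0.0131, limma), and day 7 minus day 3 was -0.40 ± 0.13, which did not pass the test (adjusted p = 0.108).

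Mrpl54 (ENSMUSG00000034932, chromosome 10, 81264713 to 81266934, minus strand) was called higher at day 3 alone. It stood at 19.1, 19.3, 18.5, 27.3 and 20.1 CPM in the controls, at 27.2, 27.9, 30.4, 29.98 and 28.7 CPM at day 3 and at 21.4, 22.4, 19.8, 17.8 and 23.9 CPM at day 7. All day 3 grafts were above all day 7 grafts and above the controls except control 4, which was just above the lowest of them. The change from control was 0.47 ± 0.11 at day 3 (adjusted p = 0.00233, limma) and 0.02 ± 0.12 at day 7 (adjusted p = 0.885). On deposited TPM the day 7 change was 0.42 and was called. It was also the single member called between the graft times, as the next comparison shows.

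Mrpl58 is an unusual subunit, a peptidyl-tRNA hydrolase built into the large subunit that frees chains from stalled ribosomes. It was at 24.2 ± 3.35 CPM in controls, 19.4 ± 1.65 at day 3 and 19.97 ± 1.70 at day 7. It was called lower at both times, by -0.32 ± 0.11 and -0.27 ± 0.11, but at day 7 the call was lost in 12 alternatives and on deposited TPM the change turned to 0.13.

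**Figure D3:**
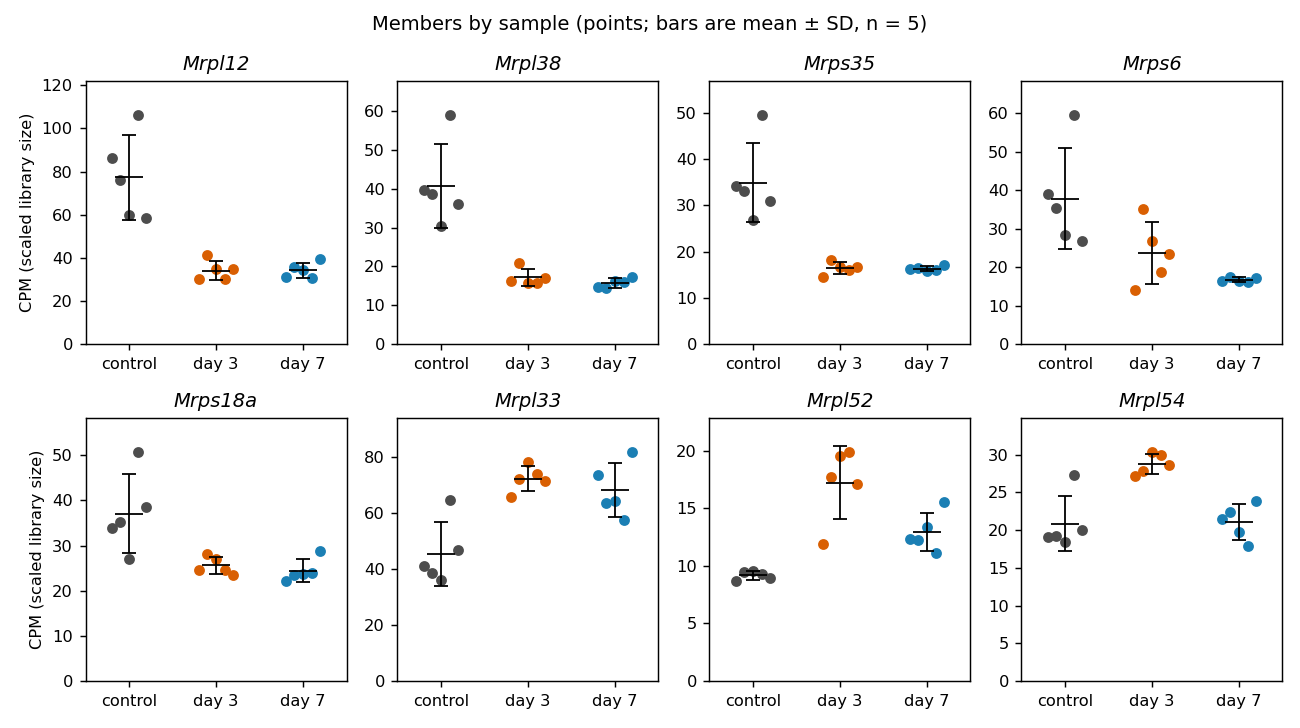
CPM by sample (y axis, starting at 0) of 8 members in controls, day 3 grafts and day 7 grafts, where points are samples and bars are mean ± SD over 5 samples. Mrpl12, Mrpl38 and Mrps35 show no overlap of grafts with controls, Mrps6 spreads from 14.2 to 35.01 CPM at day 3, and Mrpl33, Mrpl52 and Mrpl54 are higher at day 3 than in most controls.

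Small subunit proteins with a bacterial counterpart numbered 9 lower of 16 at day 3 and 11 at day 7, with none higher at either time and medians of -0.41 and -0.42. Mrps5, a protein near the decoding site, changed by -0.93 ± 0.12 and -0.86 ± 0.11, with grafts at 20.2 to 26.7 CPM at day 3 and controls at 38.3 to 58.5 CPM. Mrps7, in the head of the small subunit, had 60.5, 59.6, 46.3, 88.5 and 53.9 CPM in the controls, 30.6, 37.03, 34.1, 29.9 and 29.8 CPM at day 3 and 28.2, 31.7, 30.4, 26.2 and 33.4 CPM at day 7. Grafts and controls did not overlap, and the changes were -0.91 ± 0.14 (adjusted p = 8.82e-05, limma) and -1.01 ± 0.14 (adjusted p = 3.29e-05). The Mrps7 gene (ENSMUSG00000046756, chromosome 11, 115603925 to 115608036, plus strand) overlaps Gga3 and Mif4gd on the opposite strand.

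Mrps6 (ENSMUSG00000039680, chromosome 16, 92058270 to 92112227, plus strand) shares its strand with the overlapping gene Slc5a3, so reads could be divided between them. It had 38.9, 35.2, 28.3, 59.4 and 26.8 CPM in the controls, 14.2, 35.01, 26.9, 18.8 and 23.5 CPM at day 3 and 16.5, 17.6, 16.3, 16.2 and 17.2 CPM at day 7. Day 3 graft 2 lay within the range of the controls, while all day 7 grafts were below them. The change was -0.68 ± 0.23 at day 3 (adjusted p = 0.0202, limma), a call lost in 6 alternatives, and -1.11 ± 0.24 at day 7 (adjusted p = 0.00105). Mrps21 (-0.33 ± 0.16 and -0.36 ± 0.16) and Mrps24 (-0.37 ± 0.16 and -0.36 ± 0.16) did not pass the test at either time. Mrps21 was called lower in 4 of 29 alternatives at day 3 and in 8 at day 7, and Mrps24 in 8 and 10.

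In the small subunit proteins specific to mitochondria, 7 of 10 were lower at day 3 and 8 at day 7, none was higher, and the medians were -0.46 and -0.54. Mrps35 (ENSMUSG00000040112, chromosome 6, 147042764 to 147073991, plus strand) had 34.2, 33.03, 26.9, 49.5 and 31.03 CPM in the controls, 14.4, 18.2, 16.7, 16.1 and 16.8 CPM at day 3 and 16.2, 16.6, 15.8, 16.01 and 17.2 CPM at day 7. Controls and grafts were apart at both times, with changes of -1.06 ± 0.14 (adjusted p = 1.57e-05, limma) and -1.07 ± 0.14 (adjusted p = 1.30e-05). Mrps31 changed by -0.91 ± 0.14 and -1.05 ± 0.14. Mrps34, whose product is needed for a stable small subunit, changed by -0.81 ± 0.14 and -1.01 ± 0.14. Its gene overlaps Nme3 on the same strand and Mapk8ip3 on the other. Mrps33 was not called (0.01 ± 0.14 at day 3 and -0.03 ± 0.14 at day 7). On deposited TPM its day 7 change turned to 0.37 and was called higher. Mrps36, the member outside the ribosome, was called lower at both times (-0.52 ± 0.19 and -0.56 ± 0.19), and its day 3 call was lost in 10 alternatives.

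Mammals carry 3 relatives of the bacterial S18 protein, which occupy different places in the mitochondrial ribosome. Mrps18c, which takes the site of S18 in the small subunit, had 23.3, 23.7, 18.9, 36.2 and 27.4 CPM in the controls, 29.8, 28.1, 35.9, 30.2 and 32.4 CPM at day 3 and 29.9, 26.5, 22.8, 21.7 and 30.2 CPM at day 7. Its groups overlapped and its changes of 0.29 ± 0.15 and 0.03 ± 0.16 did not pass the test, whereas on deposited TPM it was called higher by 0.58 and 0.46. Mrps18b, at another place in the small subunit, had 45.1, 39.9, 32.5, 51.9 and 42.9 CPM, 32.7, 33.2, 36.1, 25.6 and 29.6 CPM and 27.4, 24.6, 30.1, 22.9 and 36.9 CPM in the same order of groups. It was called lower (-0.43 ± 0.15 and -0.58 ± 0.15), as was Mrps18a of the large subunit (-0.51 ± 0.14 and -0.58 ± 0.14). Neither call held on deposited TPM, where Mrps18a changed by -0.19 and -0.16 and Mrps18b by -0.11 and -0.14. The difference in change between these relatives was not tested.

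Between the graft times, the question was whether the family moved further from day 3 to day 7. The median of day 7 minus day 3 was -0.10 over the members and 0.02 over all tested genes, and values ran from -0.45 to 0.10. Mrpl54 was called lower, 1 of 78 members against 1.71% of all tested genes, and no member was called higher, against 3.18% of all tested genes. Its change was -0.45 ± 0.11 (adjusted p = 0.0301, limma), with no overlap of the graft times, and the call was lost in 9 of 29 alternatives, where the adjusted p reached up to 0.0827. When 1 sample was left out, no member was called lower in 7 of 15 fits, those without day 3 graft 3, 4 or 5 or without day 7 graft 1, 2, 3 or 4. In 2 fits, without control 4 or day 3 graft 1, 2 members were called lower. With sample quality weights 13 members were called lower, in a fit that called 9.55% of all tested genes lower and 13.3% higher.

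Ratios within a library do not depend on how libraries are scaled to each other. The summed TPM of the family over that of 22 nuclear subunits of the respiratory chain was 0.409 to 0.562 in controls, 0.931 to 0.977 at day 3 and 0.911 to 0.952 at day 7. The grafts were all above the controls. All 22 respiratory chain subunits were called lower at both times, with medians of -1.22 and -1.42. The mRNAs of the mitochondrial genome, which the mitochondrial ribosome translates, amounted to 45.6 to 65.9 TPM per TPM of the family in controls. That ratio was 11.8 to 18.8 at day 3 and 9.23 to 17.4 at day 7. All 13 of these mRNAs were called lower, with medians of -1.97 and -2.34.

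The large subunit over the small subunit in summed TPM was 1.89 to 1.98 in controls, 2.13 to 2.26 at day 3 and 2.13 to 2.24 at day 7, without overlap between controls and grafts. Leaving out Mrpl33, Mrpl52 and Mrpl54, a choice made after their values were seen, it was 1.68 to 1.78, 1.73 to 1.79 and 1.74 to 1.84, and the groups overlapped. The mean log2 TPM of the large subunit genes minus that of the small subunit genes, which gives each gene the same weight, ran without those 3 genes from -0.139 to -0.0757 in controls, -0.076 to 0.0081 at day 3 and -0.028 to 1.09e-04 at day 7. All day 7 grafts were above all controls on this measure, and at day 3 only graft 2 was below a control, control 3. Those 3 genes held 7.08 ± 0.584% of the family's summed TPM in controls, 13.4 ± 0.831% at day 3 and 12.6 ± 0.589% at day 7. Among shares of the family's summed TPM, 12 members were above and 17 below all controls at day 3, and 13 above and 17 below at day 7. These shares sum to a constant, so a rise of some makes others lower. Mrpl12 went from 1.93 ± 0.214% to 1.02 ± 0.126% and 1.11 ± 0.0562% of the sum. Mrps21 held 5.90 ± 0.459%, 5.38 ± 0.356% and 5.88 ± 0.508%, with overlap.

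**Figure D4:**
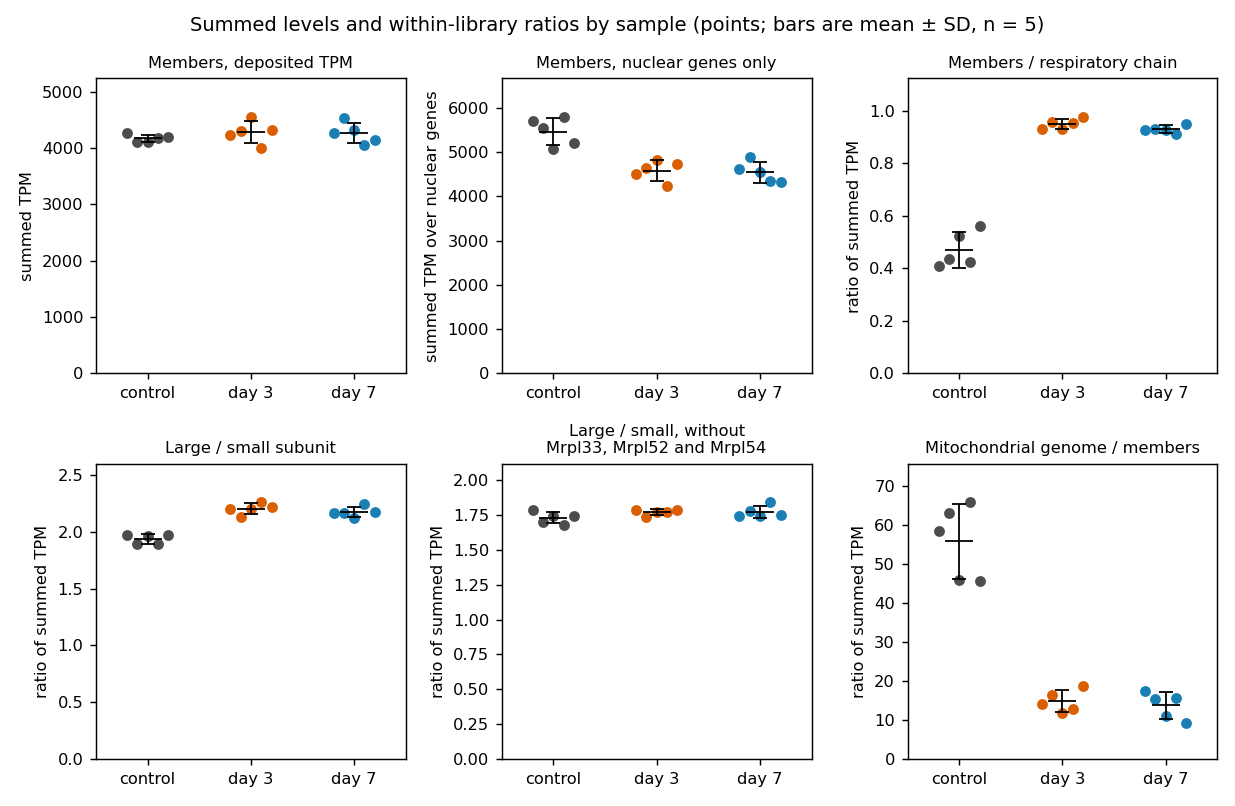
Sums and ratios of TPM by sample (y axes, starting at 0) in controls, day 3 grafts and day 7 grafts, where points are samples and bars are mean ± SD over 5 samples. The deposited sum overlaps between the groups, the sum over nuclear genes does not, and the ratio to 22 respiratory chain subunits runs from 0.409 to 0.562 in controls and from 0.911 to 0.977 in grafts.

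Other genes that serve mitochondrial translation were read from lists chosen for their function. Of mitochondrial ribosomal proteins with other symbols, 5 of 6 listed were found under their own symbol, since Ict1 is Mrpl58. At day 3, 3 of 5 were lower, and 4 of 5 at day 7, with medians of -0.34 and -0.52. Ptcd3, an RNA-binding small subunit protein, changed by -0.83 ± 0.13 and -0.79 ± 0.13. Dap3, a GTP-binding small subunit protein also known from cell death, changed by -0.20 ± 0.12 at day 3, which did not pass the test, and by -0.52 ± 0.12 at day 7. Of 25 genes of ribosome assembly and rRNA modification, 17 were lower and 1 higher at day 3, and 18 lower and none higher at day 7, with medians of -0.70 and -0.66. Mtg1, a GTPase of large subunit assembly, changed by -1.32 ± 0.21 and -1.38 ± 0.21. Mrm3, an rRNA methyltransferase, changed by -1.13 ± 0.13 and -1.23 ± 0.13. The one called higher was Rbfa, a small subunit assembly factor, at 0.49 ± 0.14 (adjusted p = 0.00706, limma), and it was lower again at day 7 than at day 3 (adjusted p = 0.0392).

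Among 16 translation factors, 12 were lower at day 3 and 11 at day 7, with none higher and medians of -0.46 and -0.47. The elongation factor Tufm was at 90.7 ± 25.9 CPM in controls, 47.5 ± 3.20 at day 3 and 42.7 ± 3.41 at day 7, a change of -0.89 ± 0.15 and -1.04 ± 0.15. Gfm2, which recycles ribosomes, changed by -1.19 ± 0.12 and -1.20 ± 0.12. Of 20 mitochondrial tRNA synthetases and amidotransferase subunits, 17 and 16 were lower and none was higher, with medians of -0.80 and -0.72. The summed level of this list nevertheless overlapped between the groups. It was 616 to 854 CPM in controls, 527 to 891 at day 3 and 551 to 867 at day 7. Gatb, of the amidotransferase, changed by -1.31 ± 0.19 and -1.38 ± 0.19. Of 10 genes of mitochondrial DNA maintenance and transcription, 9 were lower at each time, with medians of -0.69 and -0.67, among them the RNA polymerase gene Polrmt (-1.02 ± 0.18 and -1.07 ± 0.18).

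The cytosolic ribosome was the contrast. Of 75 tested genes for its proteins, 49 were called higher and 1 lower at day 3, and 37 higher and none lower at day 7, with medians of 0.42 and 0.37. The difference between the 2 ribosomes' lists was not tested. In TPM, the family amounted to 0.0363 to 0.0837 of the sum of the cytosolic ribosomal proteins in controls, 0.0272 to 0.0361 at day 3 and 0.0264 to 0.0344 at day 7. All grafts were thus below all controls in that ratio.

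**Figure D5:**
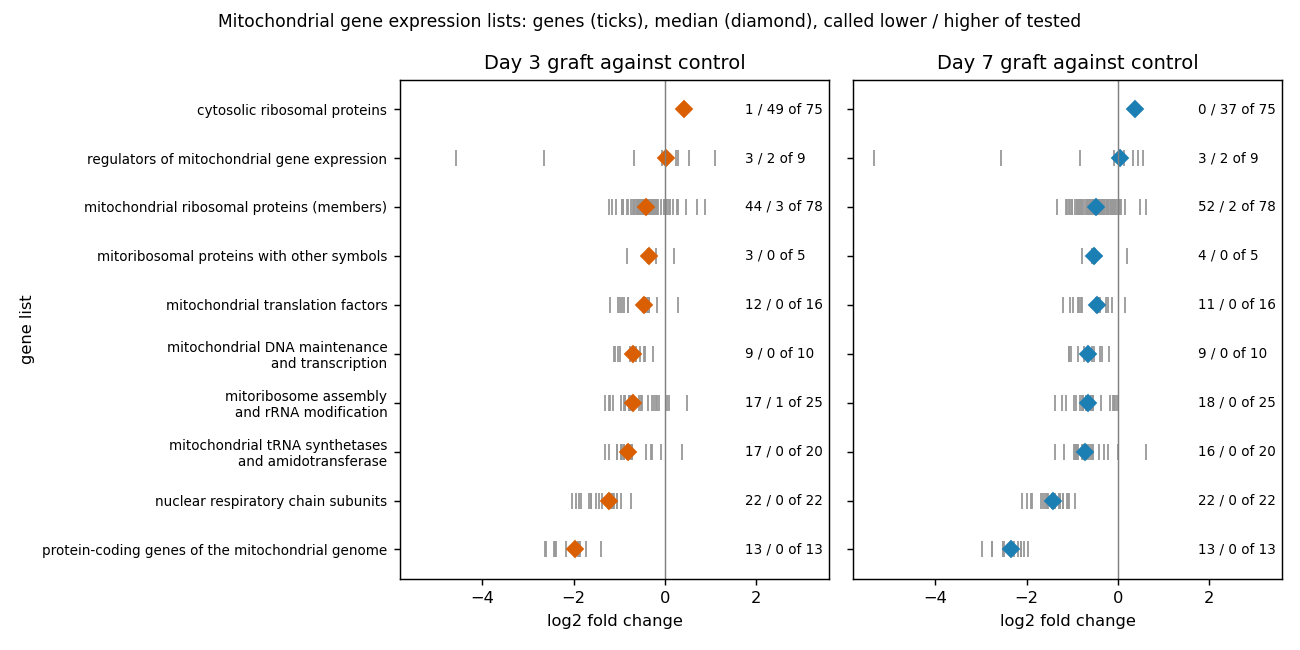
log2 fold changes (x axis) at day 3 (left) and day 7 (right) against control for 10 gene lists (y axis), with single genes as ticks, list medians as diamonds and the number called lower and higher of those tested at the right. Single genes are not drawn for the cytosolic ribosomal proteins. The members' medians of -0.41 and -0.49 lie between those of the cytosolic ribosomal proteins (0.42 and 0.37) and the respiratory chain (-1.22 and -1.42).

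Of 9 regulators of mitochondrial gene expression, 3 were lower and 2 higher at each time, shares near those of all tested genes (30.3% lower and 30.1% higher at day 3, 28.4% and 32.2% at day 7). The median was 0.03 at day 3 and 0.04 at day 7. Ppargc1a, Ppargc1b and Esrra were the lower ones, and Pprc1 was higher at both times, with Myc at day 3 and Gabpb1 at day 7. Ppargc1a, a coactivator that drives mitochondrial biogenesis, went from 17.01 ± 6.02 CPM in controls to 0.75 ± 0.401 at day 3 and 0.434 ± 0.241 at day 7, a change of -4.56 ± 0.49 and -5.34 ± 0.55. Its graft levels were near the 0.389 CPM asked by the filter on low counts, so the size of these changes rests on few reads. Esrra, a nuclear receptor that works with it, changed by -0.66 ± 0.14 and -0.83 ± 0.14. The transcription factors Nrf1 (0.25 ± 0.13 and 0.12 ± 0.13) and Gabpa (0.03 ± 0.09 and 0.04 ± 0.09), known to bind promoters of mitochondrial genes, did not pass the test. Myc, a growth regulator that also acts on ribosome genes, had a change of 1.10 ± 0.20 at day 3, which was called, and of 0.44 ± 0.21 at day 7, which was not.

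Markers of several cell types also changed, in both directions. All 10 adipocyte markers were lower at both times, and their summed level was 17916 to 53798 CPM in controls, 2317 to 8769 at day 3 and 1157 to 2603 at day 7. All 9 macrophage markers were higher, with sums of 1309 to 3605, 4797 to 11106 and 8904 to 12876 CPM. Of 6 fibroblast and progenitor markers, 4 were higher at each time, namely Pdgfra, Col1a1, Col3a1 and Dcn. Their sums ran from 1519 to 7171 CPM in controls and from 12384 to 29849.6 CPM over the grafts, most of it from the collagen genes Col1a1 and Col3a1. The progenitor marker Dpp4 changed by -0.30 ± 0.30 at day 3, which did not pass the test, and was called lower at day 7 (-1.14 ± 0.30), while Pi16 (-0.15 ± 0.53 and -0.74 ± 0.52) was not called. Endothelial markers were higher for 5 of 6 and neutrophil markers for 4 of 6 at each time, while all 5 B cell and all 5 T cell markers were lower. Proliferation markers were higher for 4 of 6 at day 3 and for 6 of 6 at day 7. None of 8 muscle markers was called, although they summed to 3436 CPM in control 2, and the 5 epididymis markers were at 0 in all samples. The part of these shifts in the family's change was not tested.

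In the annotation the family is spread over 17 chromosomes and its genes are short, with a median span of 7900 bases against 24317 for tested protein-coding genes. Head-to-head neighbours were counted where oppositely oriented protein-coding genes point apart, do not overlap and start within 1000 bases of each other. Pairs that overlap at their starts, such as Mrpl46 and Mrps11, were therefore left out. Such a neighbour was found for 18 of 78 members and for 1329 of 14217 tested protein-coding genes, 9.35%. Among these neighbours are Mrps12 with Sars2, the gene of the mitochondrial seryl-tRNA synthetase, and Mrps34 with Eme2. A gene on the opposite strand overlaps 35 members, counted over whole gene spans with introns included. Where the transcripts themselves overlap, reads of the partners cannot be told apart if counting ignored strand. Of 5 Mrp pseudogenes in the matrix, the highest held 14 estimated counts in a sample.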

How the data were processed

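Per the labels' protocols, Trizol and RNeasy extraction was followed by a stranded mRNA library kit and paired sequencing of 151 bp. The tools in the submitters' processing notes are STAR 2.7.1a, RSEM 1.3.1 and cutadapt 2.8, with mm10 as build. Neither the tools' roles nor the annotation release or the use of strand are given there. The authors deposited 1 matrix with 3 values per gene and sample, and all 45 value columns were mapped to samples. Its estimated counts, deposited by the authors without scaling, are whole numbers written with digit separators, so they were handled as another unit than plain counts. Under that handling the quasi-likelihood count test of the plan was not run, and limma-voom took its place. The limma-voom fit used the same whole numbers with the separators removed, so a count test could also have been run on them. The deposited TPM values, scaled by the authors for length and to 1 total in every sample, served for levels between genes, ratios and an alternative fit. The deposited RPKM values, which the authors scaled for length and library size, were not used.

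Members, roles and lists were chosen with earlier results of these data known, so they give no independent support to what those results show. The filter asked for 0.389 CPM (10 counts in the median library) in 5 or more samples, and for a total of 15 counts. Scaling factors came from trimmed means of M-values (30% trimmed on log ratios, 5% on abundance), and ran from 0.746 to 1.14. All samples entered 1 fit of 3 group means in limma 3.58.1 (R 4.3.3), with Benjamini-Hochberg adjustment over 16051 genes and a threshold of 0.05. The procedure was tested on simulated data. Every named member held 125 estimated counts or more in each sample, and the SD and SE values given above reflect the spread between samples.

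The named genes were, in each comparison, the 8 called members with the largest change in the majority direction, up to 8 in the other and the 4 with the smallest change. To these were added the 3 highest and 3 lowest in mean TPM, a panel of 8 members, 5 regulators and up to 3 called genes per direction in each list. Same-numbered samples were checked for pairing, and their correlations of -0.18 to 0.34, with 5 of 15 over 0.1, gave no pairing. Alternatives changed scaling, filter, samples, weights, unit and a replicate block, and left out single libraries. Figures were drawn with matplotlib 3.10.9.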

Additional observations from a re-analysis of the deposited data

Results flagged for a closer look

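The check covered the 28 named members and some of the sums and ratios. These were the family's summed CPM and TPM, its share of counts, its ratio to the respiratory chain and large over small subunit. It also took in the mitochondrial genome's share of counts, while the other sums and ratios above were not checked. In all, 102 groups of 5 samples were checked. In 7 of them a sample was set apart from the other 4 by more than Dixon's 95% critical value of 0.71, where chance alone gives about 1 in 20. Of these, 3 were day 7 graft 5, with Mrpl49 at 19.4 CPM (the next at 22.0), Mrps18a at 28.8 CPM (the next at 23.9) and Mrps34 at 15.7 CPM (the next at 11.04). Control 4 stood apart for Mrpl54 at 27.3 CPM (the next at 20.1) and for Mrps30 at 48.5 CPM (the next at 34.5). Day 3 graft 2 had Mrpl38 at 21.0 CPM (the next at 17.0) and day 3 graft 3 had Mrpl58 at 22.3 CPM (the next at 19.3). Mrpl54 was also the member whose change from control differed between the graft times, with day 7 minus day 3 at -0.45 in limma's test.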

How the results depend on the processing

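The median change of the members stayed below 0 in every alternative for day 3 and day 7 against control. On log2(TPM + 1) 20 members were lower and 17 higher at day 3 (median -0.078), and 21 lower and 15 higher at day 7 (median -0.092). There Mrpl15 turned to 0.30 at day 3, and Mrpl17 to 0.38, Mrps33 to 0.37 and Mrpl58 to 0.13 at day 7. In that fit these changes of Mrpl15, Mrpl17 and Mrps33 were called higher. The mitochondrial genome's share of TPM differed between the groups as given above. Members higher at day 3 numbered 5 with library totals, 7 with sample quality weights and 6 with TPM over nuclear genes, in place of 3. Of all tested genes, 30.8%, 35.3% and 28.6% were higher in these fits, in the same order, against 30.1% in the reported fit. Members lower between the graft times, 1 in the reported fit, numbered 2 with only the 2 groups compared, 13 with quality weights (where 9.55% of all tested genes were lower), and 2 without day 3 graft 1 and day 7 graft 5, which lay between the groups. With the replicate number as a block, 42 members were lower and 3 higher at day 3, 49 and 2 at day 7, and 0 between the graft times. The check of same-numbered samples showed no clear pairing but cannot exclude it, and the block changed no other count by over 1.5 times. When single samples were left out, members higher at day 3 ranged from 3 to 7 (7 without control 4), and members lower between the graft times from 0 to 2. The causes were not tested. Over the changes of the named members in 29 alternatives each, 2315 values kept their side of the threshold. Among these, changes that were called in neither fit could turn direction. A further 59 became called, 58 lost the call and 4 turned direction with a call in either fit. Depth limited no named member, all of which held 125 counts or more.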

Other observations

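The members' levels were more spread among themselves in the grafts. The SD of log2(TPM + 1) over the 78 members was 0.836 to 0.922 in the controls, 0.979 to 1.02 at day 3 and 0.949 to 1.01 at day 7, with no overlap of controls and grafts. Because of the added 1, this SD is not fully independent of how libraries are scaled to each other. The most abundant member, Mrpl33, was among those higher in the grafts, and no test of the SD was made.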
